A study of Mus musculus with 267 samples.

Results

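EGR2 is a zinc finger transcription factor, and the binding sites it acquired in macrophages after interleukin-4 (IL-4) were examined here in 4 inbred strains of mice: BALB/cJ and NOD/ShiLtJ, called BALB and NOD here, and the wild-derived PWK/PhJ and SPRET/EiJ, called PWK and SPRET. For each strain, the list of EGR2 chromatin immunoprecipitation sequencing (ChIP-seq) peaks of untreated (basal) cells was compared with the list after 24 hours of IL-4. Both lists of a strain were held to the same lowest peak score. A 24-hour peak that overlapped a basal peak by 1 bp or more was called shared, a 24-hour peak that overlapped none was called gained, and a basal peak that overlapped no 24-hour peak was called lost. The classes held 117233 peaks, of 1958714 in all 54 peak lists of the series: 42322 in BALB, 17712 in NOD, 16253 in PWK and 40946 in SPRET. They came from 16 EGR2 libraries, of 267 samples in the series, with 2 biological replicates in each of 8 groups. Because the replicates of a group had been merged into 1 list, peak counts have no replicate error, and their intervals cover counting error only.

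The cells were bone marrow-derived macrophages (BMDMs), grown from bone marrow for 7 days in the growth factor M-CSF. The 24-hour groups then received 20 ng/ml IL-4, and the basal groups received none. All mice of these 4 strains carried an unmodified Egr2 gene and were females of 8 to 12 weeks of age, by the study's methods. The series compares how macrophages of genetically distant inbred strains respond to IL-4. C57BL/6J (C57) BMDMs were measured too, over 1, 6 and 24 hours of IL-4, and so were BMDMs of Egr2 fl/fl mice and of LyzM-Cre Egr2 fl/fl mice, in which a Cre recombinase driven by the Lyz2 promoter of myeloid cells deletes the floxed Egr2 gene.

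IL-4 binds a cell surface receptor whose Janus kinases phosphorylate STAT6, and STAT6 then enters the nucleus and binds enhancers of genes of alternative activation, such as Arg1. Egr2 is among the genes that IL-4 induces in macrophages, and its product binds GC-rich sites through its zinc fingers. The lineage factors PU.1 (PU1 in the labels) and CEBPβ (CEBPb) mark macrophage enhancers before the signal arrives, and PPARγ (PPARg) is a nuclear receptor of lipid metabolism that IL-4 also induces. Acetylation of lysine 27 of histone H3 (H3K27ac) marks active promoters and enhancers.

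The results below turn on gained peaks of a few kinds, and 8 of their 200-bp windows are shown in the mm10 reference sequence (GRCm38, C57 alleles, plus strand), which holds no variant of the other strains. The first 4 are the gained peaks under the region with the largest H3K27ac rise of each strain, the fifth lies in Jak1 at the site gained with an H3K27ac rise in all 4 strains, and the last 3 are among the 4 sites with the highest scores of those gained in all 4 strains. Capitals mark letters that match an EGR motif (GCGTGGGNG or GCGGGGGNG) or the STAT6 motif (TTCNNNNGAA) on either strand.
BALB, between genes near Wars2, chr3:99130589-99130788: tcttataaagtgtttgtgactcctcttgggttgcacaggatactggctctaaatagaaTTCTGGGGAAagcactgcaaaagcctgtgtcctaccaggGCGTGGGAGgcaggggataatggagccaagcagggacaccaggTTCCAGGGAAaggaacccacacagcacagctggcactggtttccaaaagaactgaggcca
NOD, intron of Il31ra, chr13:112551658-112551857: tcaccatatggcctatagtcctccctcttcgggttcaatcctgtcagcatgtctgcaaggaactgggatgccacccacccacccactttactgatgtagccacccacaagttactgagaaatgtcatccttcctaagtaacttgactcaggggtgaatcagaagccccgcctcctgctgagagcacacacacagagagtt
PWK, intron of Nbas, chr12:13410280-13410479: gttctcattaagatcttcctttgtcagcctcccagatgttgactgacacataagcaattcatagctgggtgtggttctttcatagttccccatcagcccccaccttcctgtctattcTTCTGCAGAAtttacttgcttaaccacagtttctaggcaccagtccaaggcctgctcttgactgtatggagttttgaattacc
SPRET, between genes near Fbp1, chr13:62895338-62895537: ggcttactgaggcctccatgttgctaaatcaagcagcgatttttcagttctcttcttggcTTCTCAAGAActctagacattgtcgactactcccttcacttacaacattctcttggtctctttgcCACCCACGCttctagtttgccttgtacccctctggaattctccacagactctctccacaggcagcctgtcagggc
PWK, intron of Jak1, chr4:101159322-101159521: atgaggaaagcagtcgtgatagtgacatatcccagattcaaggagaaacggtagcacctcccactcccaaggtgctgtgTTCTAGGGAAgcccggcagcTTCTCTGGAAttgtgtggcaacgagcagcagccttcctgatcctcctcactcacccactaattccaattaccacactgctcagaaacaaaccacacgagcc
SPRET, between genes near Maco1, chr4:134853959-134854158: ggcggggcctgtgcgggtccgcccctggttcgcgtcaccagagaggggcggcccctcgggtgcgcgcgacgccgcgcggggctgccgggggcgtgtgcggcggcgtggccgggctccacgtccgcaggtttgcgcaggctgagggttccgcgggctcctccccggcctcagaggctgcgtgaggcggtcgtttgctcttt
SPRET, coding exon of Rin3, chr12:102368502-102368701: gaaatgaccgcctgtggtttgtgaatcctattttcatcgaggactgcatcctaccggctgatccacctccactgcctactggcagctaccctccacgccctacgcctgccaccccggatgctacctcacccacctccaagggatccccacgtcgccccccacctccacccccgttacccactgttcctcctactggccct
SPRET, intron of Mapre1, chr2:153741506-153741705: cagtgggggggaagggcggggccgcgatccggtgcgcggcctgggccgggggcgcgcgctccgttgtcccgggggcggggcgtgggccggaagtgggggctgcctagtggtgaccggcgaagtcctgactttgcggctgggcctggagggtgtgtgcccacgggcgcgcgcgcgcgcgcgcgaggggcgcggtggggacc

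Of the 4 windows under the strongest rises, those near Wars2 and Fbp1 held an EGR match, starting at base 98 and base 126 of the window, and the 3 windows other than that of Il31ra held 1 or 2 STAT6 matches. The Jak1 window held 2 STAT6 matches, starting at bases 80 and 100, and no EGR match. The 3 windows of high score in all strains held neither motif, and the 2 near the starts of Maco1 and Mapre1 were 77.0% and 80.0% G and C.

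The H3K27ac tables gave normalized tags per region, that is, reads within 500 bp of the centre of a reproducible open chromatin peak, scaled by the authors to a common library total. The 16 H3K27ac libraries of the 4 strains held 5825127 to 20991422 reads. In every strain the second 24-hour library had a smaller share of its reads in the regions than the first, and the second of BALB stood apart, at 28.7% against 57.1%. H3K27ac lay at the gene starts of the macrophage markers (Csf1r, Adgre1, Cd68, Itgam, Spi1, Mertk and Cd14), with 16 or more tags at 7 of 7 in BALB, NOD and PWK and at 6 of 7 in SPRET, with sums of 2710 to 3841 tags at basal and lower sums, 1956 to 2500, at 24 hours. The 4 T cell markers had no region at their starts, and 1 of 4 B cell and 1 of 4 neutrophil precursor markers reached 16 tags. These were Ms4a1, with 59.3 to 122 tags, and S100a8, with 90.8 to 239 tags. S100a8 went from 114 to 176 tags in SPRET and was lower at 24 hours in the other strains. Ms4a1 was higher at 24 hours in NOD and PWK and lower in BALB and SPRET. At 24 hours 1 of 3 dendritic cell markers, Zbtb46, reached 16 tags in PWK and SPRET. Dendritic cell markers summed to at most 46.0 tags and fibroblast markers to at most 7.01, and both sums were higher at 24 hours wherever they were above 0. The part of these other cell types in the rises below was not tested. In bulk libraries, a smaller share of cells with a mark and less of the mark per cell cannot be told apart.

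Held to the common lowest score, the EGR2 list was longer at 24 hours than at basal in each strain, while as deposited the NOD list was shorter, with 16604 peaks against 25341. At the common score, 36.3% of 24-hour peaks were gained in BALB (13480 of 37104, 95% exact binomial interval 35.8 to 36.8%), 36.8% in NOD (6115 of 16604, 36.1 to 37.6%), 67.4% in PWK (10052 of 14919, 66.6 to 68.1%) and 72.6% in SPRET (28645 of 39458, 72.2 to 73.0%). Losses were fewer: 5218 of 28842 basal peaks (18.1%) in BALB, 1108 of 11597 (9.55%) in NOD, 1334 of 6201 (21.5%) in PWK and 1488 of 12301 (12.1%) in SPRET. The shared peaks numbered 23624, 10489, 4867 and 10813, in the same order of strains. How many basal peaks could be called and how many sites were bound cannot be told apart in these lists. In NOD the basal list reached lower scores than the 24-hour list, so 13744 of its 25341 peaks fell below the common score of 18 and were set aside. Of the NOD gained peaks, 69.8% overlapped a basal peak that had been set aside. Below, a region without an EGR2 peak is one without a peak at or above the common score of its strain. In NOD such a region may hold a basal peak that was set aside.

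**Figure D1:**
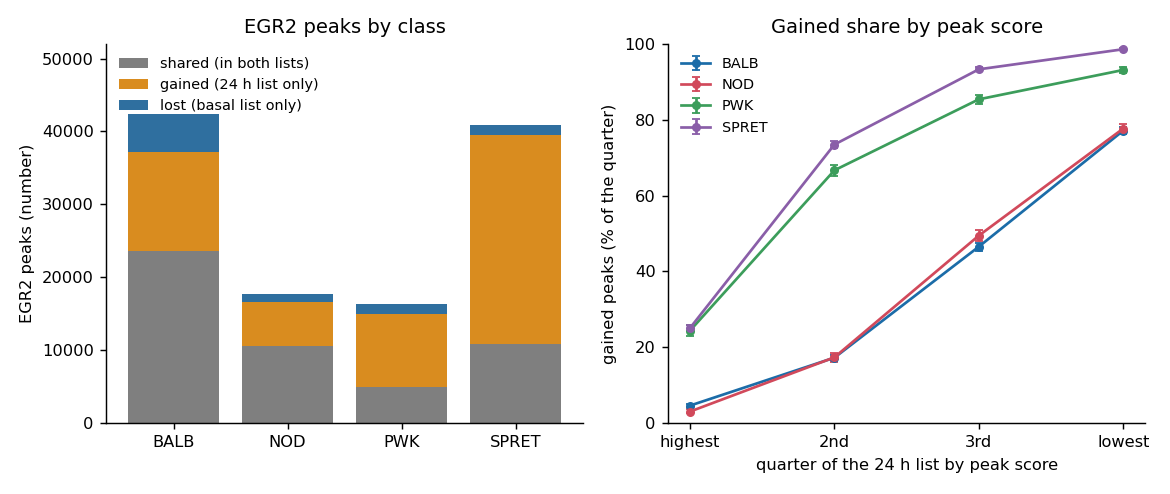
Bars give the number of EGR2 peaks in each strain that were shared, gained or lost, and lines give gained peaks as a percent of each quartile of the 24-hour list by score, with 95% exact binomial intervals. Gained peaks make up 4.54% (BALB), 2.96% (NOD), 24.3% (PWK) and 25.01% (SPRET) of the highest quartile and 77.1% to 98.6% of the lowest.

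Gained peaks had lower scores than shared ones in each strain. The classes were made from the same scores: a shared peak reached the lowest score in both lists, a gained peak at 24 hours only. A strong 24-hour peak is thus likelier to be called shared, and the difference is not a separate result. Their median peak score at 24 hours was 13 in BALB, 35 in NOD, 13 in PWK and 17 in SPRET, against 35, 71, 27 and 59 for shared peaks. When the 24-hour peaks were ranked by score, 4.54% of the top quartile were gained in BALB, 2.96% in NOD, 24.3% in PWK and 25.01% in SPRET, and the share in the bottom quartile was 77.1%, 77.7%, 93.1% and 98.6%. Among the 1000 peaks with the highest scores, 16, 15, 71 and 28 were gained. Shared peaks, too, had higher scores after IL-4: 84.8% of them in BALB, 99.1% in NOD, 93.3% in PWK and 99.3% in SPRET, with median ratios of 1.5, 2.03, 1.92 and 3.4. Many gained peaks therefore lay close to the lowest score: 72.0% in BALB, 50.1% in NOD, 76.5% in PWK and 53.0% in SPRET scored under 2 times that score.

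Few sites were gained in every strain. The peaks of the 4 strains merged into 59181 sites, of which 32859 were gained in exactly 1 strain, 9360 in 2, 1809 in 3 and 175 in all 4. Shared sites overlapped more between strains, with 3355 shared in all 4. Some sites gained in 1 strain were bound elsewhere already: of the 44203 sites gained in at least 1 strain, 15799 were shared in another. Of NOD gained peaks, 73.7% overlapped a basal peak of BALB and 67.8% a 24-hour peak of C57. Of PWK gained peaks, 73.9% overlapped a basal peak of BALB and 72.0% a 24-hour peak of C57. BALB and SPRET were different. Counting only peaks at or above the common lowest scores, 52.5% of sites gained in BALB had no EGR2 peak in the other 3 strains. The same share was 45.4% in SPRET, 3.799% in NOD and 9.14% in PWK. The 13744 NOD basal peaks set aside below the common score were not counted here. In the full NOD basal list, 3104 BALB gained peaks overlapped a peak. BALB and SPRET also had the longest 24-hour lists, and the part of list length in these shares was not tested. As a share of the longer list the overlaps were small: the NOD gained peaks met by a BALB basal peak covered 15.6% of that list.

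Among the 175 sites gained in all 4 strains, the highest scores belonged to a site 713 bp from the start of Maco1, which encodes a membrane protein best known from neurons, with scores of 209 in BALB, 207 in NOD, 65 in PWK and 169 in SPRET. The next was at Smim13 (201, 184, 47 and 172). The third was the coding exon of Rin3, a guanine nucleotide exchange factor of endosomal Rab proteins (119, 125, 30 and 85), and the fourth an intron of Mapre1, which binds microtubule ends (93, 112, 26 and 90). PWK had the lowest score at each of these 4 sites, as it had the lowest scores for its list as a whole.

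Gained peaks lay farther from gene starts than shared peaks did. The share within 1 kb of a gene start was 22.4% of gained against 37.3% of shared peaks in BALB, 33.3% against 46.9% in NOD, 37.7% against 58.0% in PWK and 21.97% against 47.7% in SPRET. Introns held the largest part of the gained peaks in BALB (45.7%), NOD (39.7%) and SPRET (45.6%), and in PWK introns (37.1%) and gene starts (37.7%) were close. The centres of all open chromatin regions were within 1 kb of a gene start in 25.5% of cases in BALB, 21.7% in NOD, 22.9% in PWK and 23.7% in SPRET.

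A smaller share of gained than of shared peaks carried an EGR motif, with intervals that did not overlap. A match was present in 8.64% of gained and 17.1% of shared peaks in BALB, 11.8% and 24.97% for NOD, 13.9% and 31.4% for PWK, and 7.39% and 23.1% in SPRET. Over the 200-bp centres of all open chromatin regions of these strains, the share was 3.49%, 2.91%, 3.10% and 3.01%, and over centres of regions without an EGR2 peak it was 0.34%, 0.73%, 0.89% and 0.47%. The gap between gained and shared peaks was also present away from gene starts, where 6.07% against 10.6% of peaks in BALB and 5.00% against 13.6% in SPRET held a match. Within the gained class the motif went with the score: 13.4% of the top quartile by score and 7.09% of the bottom quartile held it in BALB, 13.3% and 10.1% for NOD, 19.3% and 9.55% for PWK, and 10.0% and 5.52% in SPRET. The other motifs searched were PU.1 (GAGGAAGT), AP-1 (TGANTCA) and C/EBP (TTGCNNAA), and each was present in 6.45 to 12.3% of gained peaks, below its share of all region centres (9.43 to 18.2%) in each strain. A match is a description of letters in the reference sequence, and the spellings are strict, so a peak without a match may still bind the factor.

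**Figure D2:**
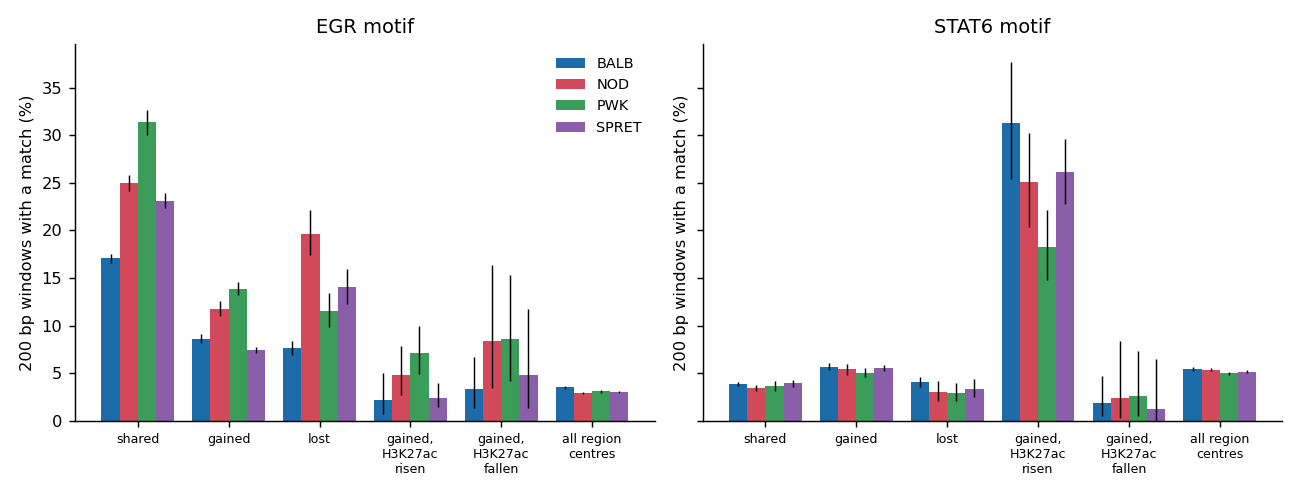
Bars give the percent of 200-bp windows that hold an EGR motif (left) or STAT6 motif (right), by peak class and strain, with 95% exact binomial intervals. The EGR motif is most frequent in shared peaks (17.1% to 31.4%), and the STAT6 motif in gained peaks under an H3K27ac rise (18.3% to 31.3%).

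A smaller share of gained than of shared EGR2 peaks overlapped peaks of other macrophage factors. At 24 hours, a PU.1 peak was present at 36.0% of gained and 56.6% of shared peaks in BALB, 52.5% and 64.7% for NOD, 54.5% and 59.4% for PWK, and 46.4% and 64.2% in SPRET. STAT6 peaks were present at 11.1% and 23.7% for BALB, 23.2% and 28.8% for NOD, 45.8% and 48.4% for PWK, and 30.8% and 51.0% for SPRET. None of PU.1, CEBPβ, STAT6 and PPARγ had a 24-hour peak at 56.3% of gained peaks in BALB, 35.0% in NOD, 28.3% in PWK and 44.0% in SPRET, against 33.4%, 24.2%, 23.2% and 24.7% of shared peaks. A basal PU.1 peak overlapped 33.2%, 42.0%, 53.2% and 46.6% of gained peaks. The share of gained peaks with a STAT6 peak was 7.17% at basal and 11.1% at 24 hours for BALB. The same shares were 18.7% and 23.2% for NOD, 18.2% and 45.8% for PWK, and 21.3% and 30.8% for SPRET. The lists of the factors were not held to a common score and differ in length, from 14022 to 38679 STAT6 peaks in PWK between basal and 24 hours, so the change of a share over time and the change of list length cannot be told apart.

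Next, the H3K27ac change was read at the regions that gained peaks overlapped. Gained peaks fell within a region of the strain's table in 44.1% of cases in BALB, 71.6% in NOD, 78.3% in PWK and 49.0% in SPRET, and shared peaks in 74.8%, 86.8%, 93.2% and 84.0%. A region was put in the gained class when it overlapped a gained peak and no shared or lost peak, which gave 4754 of 54022 regions in BALB, 4176 of 68932 in NOD, 7718 of 60175 in PWK and 13329 of 54755 in SPRET. Of these, 3534, 3316, 6691 and 10034 had 16 or more normalized tags in either group mean and could pass the fold rule. By that rule, which needs a difference of at least 2.5-fold between group means of tags plus 1, H3K27ac had risen at 228 gained regions in BALB (4.80%), 321 in NOD (7.69%), 454 in PWK (5.88%) and 652 in SPRET (4.89%). Over all regions of the tables the share risen was 2.84% in BALB, 3.24% in NOD, 3.1% in PWK and 2.64% in SPRET. Shared regions had risen in 3.55%, 5.38%, 1.93% and 2.45% of cases and regions without an EGR2 peak in 2.17%, 2.51%, 2.82% and 1.79%, so the gained class had the highest share in each strain. Lost regions had risen in 1.39% of cases in BALB, 2.77% in NOD, 0.56% in PWK and 0.66% in SPRET.

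H3K27ac had fallen by the same rule at 220 gained regions in BALB (4.63%), 85 in NOD (2.04%), 118 in PWK (1.53%) and 86 in SPRET (0.65%), against 5.13%, 5.14%, 3.01% and 0.939% of all regions. In BALB these shares were near each other, and under median-ratio scaling they were 2.08% and 2.09%. By limma over all regions of a strain's table, at a Benjamini-Hochberg adjusted p below 0.05, 154 gained regions were higher at 24 hours in BALB (3.24%), 12 in NOD (0.29%), 76 in PWK (0.98%) and 264 in SPRET (1.98%). The shares of all regions called higher were 1.6%, 0.0566%, 0.487% and 0.994%. In NOD limma called 39 of 68932 regions of any class, so a low count of calls there is not a measure of the gained regions. The calls depended on single libraries: without either 24-hour library 0 gained regions were called in NOD, PWK or SPRET, and without the second basal library 368 were called in PWK and 117 in SPRET. At an unadjusted p below 0.05 and with all libraries, limma gave 460 gained regions higher in NOD, 620 in PWK and 1376 in SPRET. No share of all regions is set beside these unadjusted counts, so they are not a result about the gained class.

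The typical gained region changed little. Its median log2 difference between 24 hours and basal was -0.35 in BALB, -0.22 in NOD, -0.16 in PWK and -0.08 in SPRET, against -0.37, -0.40, -0.26 and -0.14 for all regions past the filter. These medians depended on the scaling: scaled by the median ratio over regions, they became -0.06, 0.006, 0.03 and 0.003, and the medians of all regions moved to -0.09, -0.17, -0.06 and -0.06. Without the second 24-hour library they were 0.04 in BALB, 0.01 in PWK and 0.07 in SPRET. Relative to all regions the gained median stood between 0.12 and 0.26 higher in NOD, 0.05 and 0.15 higher in PWK and 0.06 and 0.19 higher in SPRET over 10 settings, and between -0.003 and 0.06 in BALB. Library by library, the mean log2 value over gained regions of BALB was 5.25 and 5.18 at basal and 5.39 and 4.85 at 24 hours. In NOD these means were 5.49 and 5.34, then 5.67 and 5.48. In PWK they were 5.78 and 6.03, then 6.03 and 5.90, and in SPRET 5.21 and 5.27, then 5.45 and 5.27. The 2 groups overlapped or touched in each strain, so a shift of the class as a whole could not be told from the spread between unpaired replicates. Same-numbered NOD libraries deviated together (correlation 0.70), and by number the NOD means went from 5.49 to 5.67 and from 5.34 to 5.48. No label ties these libraries. The means cover all gained regions, whereas the medians cover those past the filter. The split between rises and falls depended on scaling too: falls made up 49.1% of the gained regions past the fold rule in BALB and 20.9% in NOD, but 23.2% and 10.0% under median-ratio scaling, and the same share went from 20.6% to 8.95% in PWK and from 11.7% to 7.45% in SPRET.

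**Figure D3:**
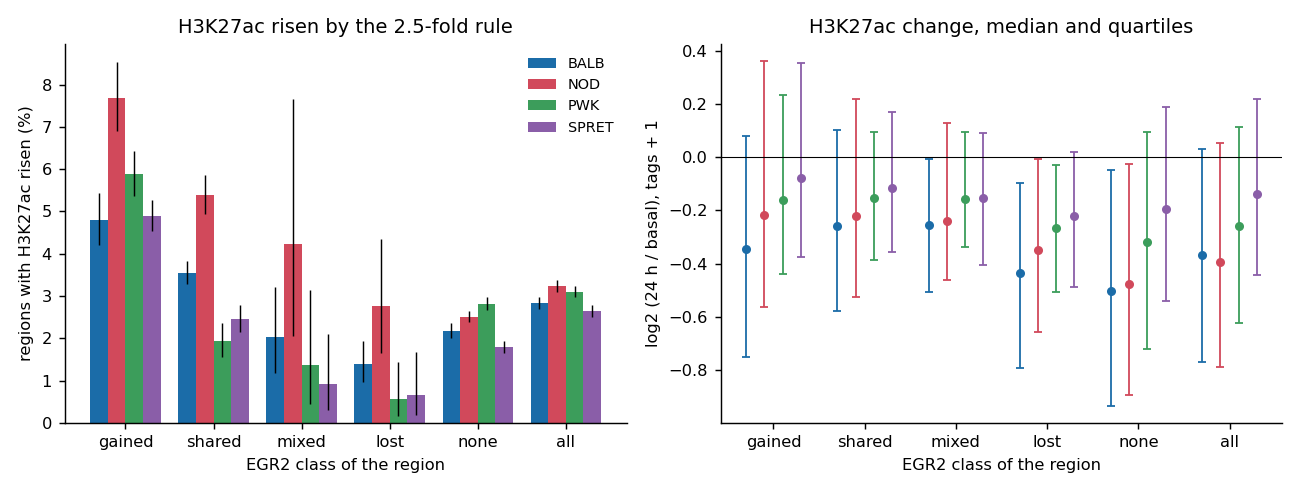
The left panel gives the percent of regions of each EGR2 class with an H3K27ac rise by the 2.5-fold rule, with 95% exact binomial intervals, and the right panel the median log2 difference (24 hours over basal, tags + 1) with its quartiles over regions past the filter. Gained regions have the highest bar in each strain, 4.80% to 7.69%, while their median differences lie below 0, from -0.35 to -0.08.

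The share of gained regions that had risen was higher away from gene starts and at the gained peaks with higher scores. More than 1 kb from a gene start, 5.96% of gained regions had risen in BALB, 11.2% in NOD, 8.71% in PWK and 6.30% in SPRET, against 3.51%, 3.78%, 3.73% and 3.18% of all such regions. Within 1 kb, 1.06%, 1.29%, 1.52% and 1.15% of gained regions had risen, against 0.87%, 1.28%, 0.99% and 0.90% of all regions there, so the gained share was near that of all regions. Ranked by the score of the gained peak, 7.74% of the top quartile and 2.78% of the bottom quartile of regions had risen in BALB, 11.2% and 6.23% for NOD, 7.00% and 4.92% for PWK, and 8.43% and 3.12% in SPRET. RNA polymerase II (Pol II), a readout that the class did not use, had risen by the fold rule at 8.04% of BALB gained regions, 5.22% in NOD, 4.52% in PWK and 2.25% in SPRET, against 5.91%, 2.35%, 2.66% and 1.54% of all regions. At the gained regions with an H3K27ac rise, Pol II had risen at 126 of 228 in BALB, 146 of 321 in NOD, 220 of 454 in PWK and 215 of 652 in SPRET, with median log2 differences of 2.03, 1.51, 1.47 and 1.18. H3K4me2, a mark of open enhancers and promoters, had risen at 7.02%, 11.5%, 20.0% and 3.68% of the same regions, against 0.294%, 0.354%, 0.926% and 0.141% of all regions.

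A peak of STAT6, PU.1, CEBPβ or PPARγ at 24 hours only went with the H3K27ac rise, and so did STAT6 motifs. Of gained regions with a STAT6 peak at 24 hours and none at basal, H3K27ac had risen at 116 of 684 in BALB (16.96%), 157 of 559 in NOD (28.1%), 328 of 2589 in PWK (12.7%) and 364 of 2661 in SPRET (13.7%). With a STAT6 peak at both times the share was 1.68%, 4.01%, 3.18% and 3.64%, and with none it was 3.26%, 5.36%, 2.06% and 2.22%. A PU.1 peak at 24 hours only went with a rise at 19.1%, 20.2%, 23.05% and 17.1% of gained regions, against 3.48%, 5.08%, 4.31% and 4.30% with PU.1 at both times. For a CEBPβ peak at 24 hours only the share was 8.46%, 12.3%, 14.2% and 13.8%, above that of STAT6 in PWK and SPRET. With CEBPβ at both times it was 2.42%, 4.44%, 4.80% and 4.63%. For PPARγ it was 7.90%, 12.95%, 11.4% and 11.8% at 24 hours only and 4.06%, 4.80%, 3.30% and 4.53% at both times. Among the STAT6 states, a peak at 24 hours only also went with the highest share outside the gained class. Regions without an EGR2 peak but with a new STAT6 peak had risen in 8.85% (BALB), 13.6% (NOD), 6.43% (PWK) and 6.49% (SPRET) of cases. With a new PU.1 peak, such regions had risen in 11.12%, 8.34%, 13.01% and 7.22% of cases, above the STAT6 share except in NOD. Shared regions with a new STAT6 peak had risen in 11.11%, 22.09%, 4.59% and 7.03% of cases.

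**Figure D4:**
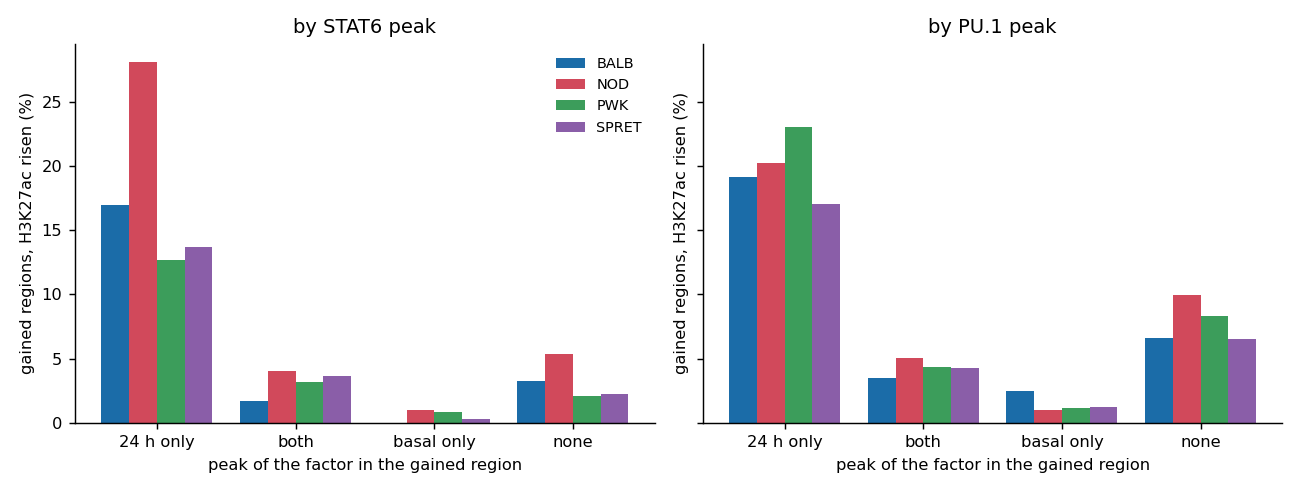
Bars give the percent of gained regions with an H3K27ac rise in each strain, by whether a STAT6 peak (left) or a PU.1 peak (right) lay in the region at 24 hours only, at both times, at basal only or at neither. The bars for a peak at 24 hours only are the highest in each strain, 12.7% to 28.1% for STAT6 and 17.1% to 23.05% for PU.1.

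The sequence of the gained peaks split in the same way. The STAT6 motif was present in 5.67% of all gained peaks in BALB, 5.40% in NOD, 5.06% in PWK and 5.53% in SPRET, close to its share of all region centres (5.41%, 5.34%, 4.98% and 5.14%). Where H3K27ac had risen, the gained peak held the motif in 72 of 230 cases in BALB (31.3%), 78 of 311 in NOD (25.1%), 82 of 449 in PWK (18.3%) and 172 of 659 in SPRET (26.1%), as did the Wars2, Nbas and Fbp1 windows shown above. Where H3K27ac had fallen, the share was 1.88%, 2.38%, 2.59% and 1.19%. The EGR motif was rarer under the rises than in the gained class at large, at 2.17%, 4.82%, 7.13% and 2.43%. Gained peaks under the rises were also rarer within 1 kb of a gene start, at 6.09%, 6.11%, 10.2% and 5.92%. The motif shares were not matched for position. The STAT6 share was not particular to gained peaks. At centres of regions without an EGR2 peak where H3K27ac had risen, the STAT6 motif was present in 34.2%, 30.0%, 26.6% and 27.8% of cases. The median score of gained peaks was 15 where H3K27ac had risen and 14 where it passed the fold rule in neither direction for BALB, 39 and 35 for NOD, 14 and 13 for PWK, and 26 and 19 for SPRET.

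Regions with the largest changes were picked among those past the fold rule whose basal and 24-hour libraries did not overlap. That separation was thus a condition of choice, and limma used the same libraries. The region with the largest H3K27ac rise among gained regions of SPRET lay between genes, 7204 bp from the start of Fbp1 (chr13:62894986-62895986). Fbp1 encodes a gluconeogenic phosphatase. The region held 0.85 and 0 normalized tags at basal and 229 and 116 at 24 hours. Only 1 read lay in the region at basal, against 260 and 108 at 24 hours, a ratio of 480 with a counting interval of 85.5 to 18993. The limma difference was 6.92 ± 0.54 (SE) on the log2(tags + 1) scale, at an adjusted p of 2.73e-05. The second region, 13045 bp from the same start, held 2.56 and 1.98 tags and then 163 and 72.2, a difference of 5.07 ± 0.50 (limma, adjusted p 0.000185). Both regions had a STAT6 peak at 24 hours only, and the nearer one had a PU.1 peak at 24 hours only.

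In BALB the largest rise lay 10446 bp from Wars2, which encodes the mitochondrial tryptophanyl-tRNA synthetase (chr3:99130122-99131122). Its 4 libraries held 0.73 and 0.60 tags at basal, 1 read each, and 127 and 42.9 at 24 hours. The ratio was 114, with a counting interval of 31.4 to 950, and limma gave 5.49 ± 0.57 at an adjusted p of 5.56e-18. The next, in an intron of Tex9, a gene known from testis, went from 0 and 1.19 tags to 67.0 and 38.6 (5.13 ± 0.59, limma, adjusted p 1.18e-14), on 2 basal reads in all, with a ratio of 75.4 and a counting interval of 20.5 to 627. In both, the lower 24-hour library was above either basal library, as the choice of regions required. Both regions gained PU.1, CEBPβ and STAT6 peaks that were not listed at basal.

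In NOD and PWK an intron of Nbas, whose product acts in transport from the Golgi to the endoplasmic reticulum, was among the largest rises. NOD held 2.49 and 0.79 tags at basal and 124 and 108 at 24 hours (5.54 ± 0.60, limma, adjusted p 0.0454). PWK held 0 reads in both basal libraries and 129 and 116 reads at 24 hours, at least 60.0-fold higher when 3 reads over the group are taken as the floor (limma, adjusted p 0.00103). The same region rose in BALB, where its EGR2 peak was shared rather than gained, from 8.08 and 1.19 tags to 135 and 71.9 (limma, adjusted p 3.30e-12). The largest rise of NOD was at the Il31ra gene, which encodes a cytokine receptor subunit related to gp130, from 3.32 and 0.79 tags to 114 and 172 (5.66 ± 0.63, limma, adjusted p 0.0454). In PWK a region in an intron of the potassium channel gene Kcnn3 went from 1.72 and 0 tags to 211 and 25.8, so the 24-hour libraries differed from each other widely (5.51 ± 0.86, limma, adjusted p 0.00741). Only 1 basal read lay there, and the counting interval of the ratio of 250.4 ran from 44.6 to 9918.

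Gained EGR2 peaks were also found where H3K27ac fell. Between genes near Mrps23, which encodes a mitochondrial ribosomal protein, BALB went from 169 and 161 tags to 16.6 and 13.3 (-3.39 ± 0.64, limma, adjusted p 3.20e-05). In an intron of Sh3pxd2a, which encodes the podosome scaffold Tks5, SPRET went from 161 and 144 tags to 22.04 and 23.7 (-2.68 ± 0.36, limma, adjusted p 0.00128). Their peak scores were 17 and 14, where the medians of the gained class were 13 and 17. The largest falls at gained peaks of NOD (near Hexim2, 137 and 66.7 tags, then 30.4 and 6.75) and of PWK (an intron of Pou2f2, 24.0 and 17.2 tags, then 2.69 and 1.91) passed the fold rule and not limma, with adjusted p of 0.225 and 0.0978. The Mrps23 region fell in NOD and PWK by the fold rule as well, where it had no EGR2 peak at or above the common score. So did the Sh3pxd2a region in BALB, NOD and PWK.

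**Figure D5:**
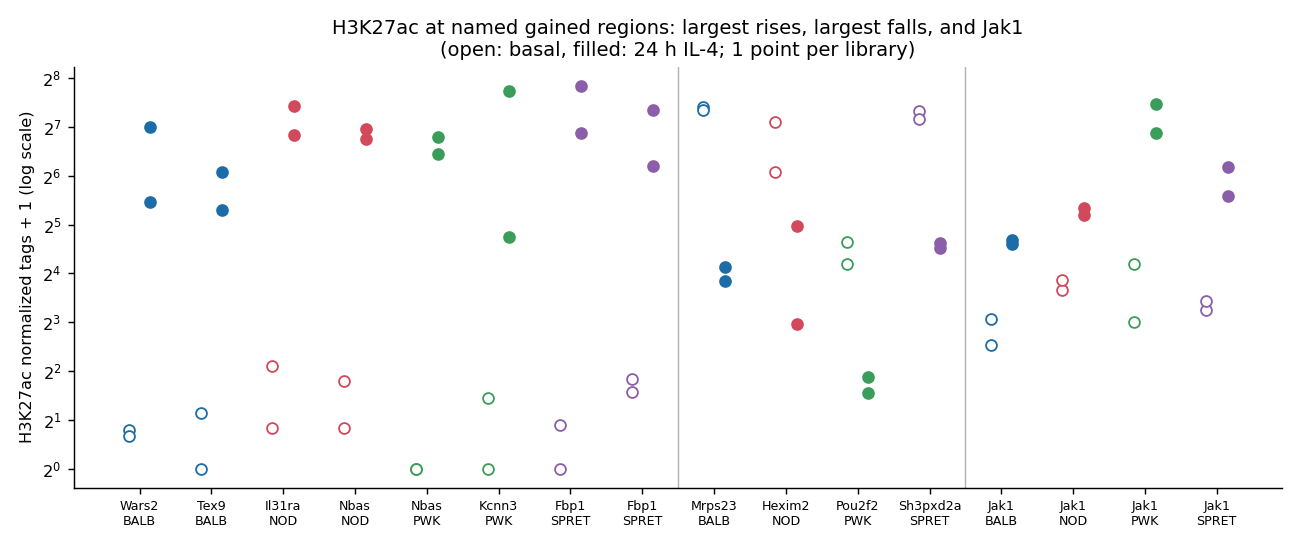
Points give H3K27ac normalized tags + 1 on a log axis, 1 per library, at the gained regions with the largest rises (left), the largest falls (middle) and at Jak1 (right), with open points for basal and filled points for 24 hours of IL-4. The choice of the largest rises and falls required that basal and 24-hour libraries not overlap, and at Jak1 PWK has the highest 24-hour values, 178 and 116 tags.

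The largest rise among shared regions was the same in BALB and NOD, an intron of Anks1. BALB went from 0.73 and 1.19 tags to 98.6 and 75.8, and NOD from 3.32 and 0.79 tags to 78.1 and 123 (limma, adjusted p 2.02e-18 and 0.0454). With 3 basal reads in BALB, the ratio there was 85.7, with a counting interval of 29.0 to 418. Its EGR2 peak was gained in PWK and SPRET, where H3K27ac rose as well, from 5.15 and 3.92 tags to 67.3 and 109 and from 4.27 and 1.98 to 51.1 and 54.9 (limma, adjusted p 0.00459 and 0.00128). Shared regions with the largest rises elsewhere were a coding exon of the collagen gene Col5a1 in PWK (0 and 2.35 tags, then 12.1 and 31.5, limma, adjusted p 0.0668) and an intron of D430041D05Rik in SPRET (4.27 and 4.61 tags, then 88.2 and 66.8, limma, adjusted p 0.000526). At lost peaks, the largest falls were near Mfsd2a, a lysolipid transporter, in BALB (129 and 108 tags, then 21.8 and 14.3, limma, adjusted p 0.00246), in an intron of Tmco4 in NOD (limma, adjusted p 0.127), in an intron of D5Ertd615e in PWK (0.0389) and in a coding exon of Bpifb9b in SPRET (0.0277). The Mfsd2a region fell by the fold rule in the other 3 strains too, where it had no EGR2 peak at or above the common score. At the Anks1 and Mfsd2a regions the direction of the H3K27ac change was thus the same in all 4 strains, while the class of the EGR2 peak was not.

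Of the 175 sites gained in all 4 strains, 37 had a gained region in every table. H3K27ac had risen by the fold rule at 1 of the 37 in all 4 strains and at 1 in 3 strains. It had risen at 5 in 1 strain and at 30 in none, and it had fallen at none. The regions past the filter on low tags numbered 23 in BALB, 25 in NOD, 32 in PWK and 27 in SPRET. A site counted as not risen in a strain may thus have been below the filter there. Risen regions numbered 1, 3, 5 and 3, in the same order of strains. Over all regions of the tables the share risen was 2.84%, 3.24%, 3.1% and 2.64%. The site risen in all 4 lay in Jak1, which encodes a Janus kinase of the IL-4 receptor (window shown above). BALB held 7.35 and 4.77 tags at basal and 24.9 and 23.3 at 24 hours. NOD held 11.6 and 13.5, then 35.4 and 39.4. PWK held 17.2 and 7.05, then 178 and 116, and SPRET 8.55 and 9.88, then 71.4 and 47.4. Basal and 24-hour libraries did not overlap in any strain, and the limma differences were 1.85 ± 0.56 in BALB (adjusted p 0.0444), 1.503 ± 0.55 in NOD (0.317), 3.58 ± 0.54 in PWK (0.00637) and 2.54 ± 0.44 in SPRET (0.00862). In each strain the region had a STAT6 peak and a CEBPβ peak at 24 hours only and a PU.1 peak at both times. The windows at Maco1, Rin3 and Mapre1, where EGR2 scores were high in all strains, held no STAT6 match.

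Genes known from the IL-4 response were then read through their gained peaks within 50 kb of the gene start. Of 31 named genes, 15 had such a peak in all 4 strains, 8 in 3, 5 in 2 and 3 in none (Btbd11, Chil3 and Retnla). Where the strongest gained peak lay in a region of the table, H3K27ac had risen by the fold rule at 10 of 19 genes in BALB, 5 of 13 in NOD, 6 of 14 in PWK and 8 of 21 in SPRET, and had fallen at none. Read in the same way over all protein-coding genes, it had risen at 3.01% of 6381 in BALB, 4.87% of 5979 in NOD, 3.50% of 9032 in PWK and 3.77% of 9490 in SPRET. The named genes were listed because they are known from the IL-4 response, some of them from these samples. limma called 6, 0, 3 and 5 of the regions. Of the risen regions, 7 in BALB, 4 in NOD, 6 in PWK and 8 in SPRET were of the gained class, while in BALB that of Cish was mixed and those of Socs1 and Klf4 were shared, and in NOD that of Socs2 was mixed. Cish, Socs1 and Socs2, which encode inhibitors of cytokine signalling, and the transcription factor genes Irf4 and Klf4 each had a risen region in 3 strains. Near Cish, BALB went from 2.94 and 1.19 tags to 62.5 and 41.0 (limma, adjusted p 3.92e-10), NOD from 5.82 and 0.79 to 31.8 and 16.3 (0.213) and PWK from 8.58 and 3.13 to 143 and 149 (0.00201). Near Socs1, PWK went from 39.5 and 21.1 tags to 279 and 217 (limma, adjusted p 0.00785) and SPRET from 3.42 and 5.27 to 117 and 86.2 (0.000247). In each of these the basal and 24-hour libraries did not overlap.

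Effector genes of alternative activation passed in single strains. Near Arg1, which encodes arginase, BALB went from 11.8 and 7.74 tags to 87.4 and 54.3 (limma, adjusted p 0.000388) and PWK from 182 and 50.1 to 631 and 212 (0.239), with basal levels that differed between the strains. In NOD and SPRET the strongest gained peak near Arg1 lay outside the regions. Slc7a2, an arginine transporter gene, went in BALB from 8.82 and 2.98 tags to 116 and 33.4 (limma, adjusted p 1.34e-06). Tmem26, a membrane protein gene, and the homeobox gene Msx3 passed limma in BALB as well (adjusted p 3.74e-10 and 3.01e-08). Tgm2, which encodes transglutaminase 2, passed in SPRET, from 5.13 and 5.27 tags to 93.5 and 37.7 (limma, adjusted p 0.00357). Near Egr2 itself, PWK held 94.4 and 161 tags at basal and 406 and 244 at 24 hours at a gained peak in an intron, which passed the fold rule and not limma (adjusted p 0.325). Near Mrc1, the mannose receptor gene, SPRET held 186 and 332 tags, then 288 and 263, and the groups overlapped.

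Gained peaks were close to many genes, so these counts have to be read against all genes: 54.8% of 21911 protein-coding genes in BALB, 35.9% in NOD, 49.5% in PWK and 70.4% in SPRET had a gained peak within 50 kb. A list of 31 alternative activation genes had 27, 18, 17 and 27 with such a peak. Of 20 genes of lipid handling, 17, 10, 17 and 19 had one. Of 22 inflammatory genes, 16, 11, 16 and 20 had one, and of 16 genes of macrophage identity 15, 12, 12 and 16. Of the 6 genes of the EGR family and its NAB corepressors, 4, 4, 5 and 6 had one. No test was made between the lists.

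The gained sites of the 4 strains were finally looked up in C57 libraries that had no part in choosing them. Of 30675 EGR2 sites in the C57 time course, 13030 overlapped a gained peak of no other strain, 11008 of 1, 5284 of 2, 1241 of 3 and 112 of 4. The median log2 difference of C57 EGR2 tags between 24 hours and basal was 0.61, 0.65, 0.71, 0.83 and 1.04 in this order, so the median was higher where more strains had gained a peak. At 6 hours the medians were 0.18, 0.24, 0.32, 0.42 and 0.54, and at 1 hour they lay between -0.46 and -0.34. The first 1-hour library stood apart, with a mean log2 value of 3.45 over all sites against 4.85 in the second. At the 112 sites of 4 strains, the mean log2 value was 3.91 and 4.26 in the basal libraries, 4.21 and 5.04 at 6 hours and 5.48 and 5.16 at 24 hours, so basal and 24-hour libraries did not overlap. With each basal or 24-hour library left out in turn, the 24-hour median stayed between 0.75 and 1.27 for these sites and between 0.37 and 0.79 for the sites of no strain. Their basal levels differed as well, with median tags of 17.7 and 24.1. Within single strains the gained sites did not always have the higher 24-hour median. It was 0.82, 0.73, 0.65 and 0.70 at C57 sites gained in BALB, NOD, PWK and SPRET. At sites without a peak of the strain it was 0.75, 0.69, 0.70 and 0.73, the higher value in PWK and SPRET. At shared sites it was 0.60, 0.58, 0.52 and 0.55.

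A separate table gave H3K27ac around 4677 C57 EGR2 sites that the authors called induced at 24 hours, in Egr2 fl/fl and LyzM-Cre Egr2 fl/fl BMDMs. H3K27ac in LyzM-Cre Egr2 fl/fl cells at 24 hours was lower by the fold rule at 604 of the 4677 sites (12.9%) and higher at 8. The median log2 difference between the genotypes at 24 hours was -0.42 at the 1833 sites that overlapped a gained peak of no other strain, -0.48 for 1, -0.58 for 2, -0.82 for 3 (293 sites) and -0.75 for 4 (41 sites). At basal the same differences were -0.21, -0.18, -0.19, -0.23 and -0.36. Over the 41 sites of 4 strains, the mean log2 value in Egr2 fl/fl libraries was 4.04 and 3.85 at basal and 5.06 and 5.02 at 24 hours, and in LyzM-Cre Egr2 fl/fl libraries 3.53 and 3.70 at basal and 4.25 and 4.28 at 24 hours. The IL-4 response at these sites was a median of 0.89 with Egr2 and 0.39 without. The Egr2 transcript itself was not analysed here, so the deletion was not checked in these cells.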

How the data were processed

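The authors aligned reads with Bowtie2 to strain genomes, shifted coordinates to mm10, called 200-bp peaks with HOMER and kept those reproducible between replicates by the irreproducible discovery rate. Each deposited EGR2 list is 1 per strain and time, with a column named score. It was taken to be the peak caller's score, which no file header states, and all score comparisons rest on that reading. The deposited histone and Pol II signal is tags within 500 bp of reproducible open chromatin peak centres, normalized by the authors to a common library total.

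Samples were grouped by the labels. Both lists of a strain were cut at the higher of their lowest scores, and classes used an overlap of 1 bp. The fold rule needed group means of tags + 1 to differ by 2.5-fold, with 16 tags in either group (8 for Pol II). limma 3.58.1 (R 4.3.3; trend, log2(tags + 1), all regions of a strain) gave adjusted p by the Benjamini-Hochberg method, called below 0.05. Intervals of shares are exact binomial at 95% and cover counting error only. H3K27ac libraries held 5825127 to 20991422 reads, and values were whole multiples of 1 read within 0.1 read in 100% of cases, so edgeR 4.0.16 and DESeq2 1.42.0 were run on recovered reads as alternatives. Replicates of a group differed beyond sampling noise. The p-values rest on the spread between these samples, which limma draws toward a trend fitted over all regions of a strain. Similar differences and SEs had very different adjusted p in BALB (Wars2) and NOD (Il31ra). Thus p-values and counts of calls are not comparable between strains. The fits across regions were tested on simulated data. Neither limma nor edgeR recovered the changes planted in NOD there. In the other strains both recovered most of the larger planted changes. Of the smaller ones, limma missed most in PWK and SPRET, and edgeR missed most in PWK. Other tools were Python 3.11.15, pandas 2.3.3, NumPy 2.4.6, SciPy 1.17.1 and matplotlib 3.10.9.

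In each strain, outside chromosomes X, Y and 18, the regions named were the 2 gained regions with the largest rise, the gained with the largest fall, the shared with the largest rise and the lost with the largest fall, among those past the fold rule with replicates that did not overlap. Sites gained and risen in all 4 strains and 31 listed genes were named as well. The members and lists were chosen with earlier results of these data known. Gene positions came from GENCODE on GRCm38, and motifs were read in the reference only. Of the columns of per-sample values, 16 were not used, of which 4 matched no sample's labels. The alternatives tried were other scores, filters, folds, pseudocounts, scalings and tests, left-out libraries and a replicate block.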

Additional observations from a re-analysis of the deposited data

How the results depend on the processing

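Values are given in the order BALB, NOD, PWK, SPRET unless a strain is named. Gained EGR2 peaks numbered 6974, 3523, 2444 and 3929 with basal and 24-hour lists of equal length, 7741 in BALB, 6068 in PWK and 16769 in SPRET with a score floor at the median, and 1847 in NOD with no common floor. Gained regions with an H3K27ac rise numbered 359 in BALB and 499 in NOD with no filter on low values, 148 and 212 with a filter of 32 tags, 97 in NOD with no common floor, 209 in NOD, 142 in PWK and 220 in SPRET with lists of equal length, and 1060 in SPRET with a 2-fold rule. The share risen stayed above that of all regions in 12 of 12 alternatives in each strain.

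limma called 19 gained regions in NOD with a pseudocount of 5, 21 with regions under 16 tags left out and 0 with median-ratio scaling, which gave 31 in PWK. With lists of equal length limma called 27 in PWK and 109 in SPRET. With edgeR the calls came to 182, 0, 39 and 303. With DESeq2 they came to 191, 146, 152 and 364. The median change of gained regions was -0.0595 in BALB, 0.00569 in NOD, 0.0344 in PWK and 0.003 in SPRET with median-ratio scaling, -0.0925 in NOD with no filter and 0.0501 in SPRET with lists of equal length. The cause of these differences was not tested.

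With each library left out in turn, limma calls ranged from 76 to 126, 0 to 180, 0 to 368 and 0 to 117. Counts of rises ranged from 165 to 336, 296 to 400, 391 to 782 and 629 to 1001. Medians ranged from -0.87 to 0.0352, -0.47 to -0.00412, -0.35 to 0.0140 and -0.22 to 0.0653, with the sign turned by leaving out the second 24-hour library in BALB, PWK and SPRET. Same-numbered libraries of a strain deviated together (correlations of 0.63, 0.70, 0.67 and 0.49 over regions), but with 2 pairs and no label that ties them they share only a number. With the replicate number as a block, limma called 292, 564, 616 and 1029 gained regions. No share of all regions is set beside the counts of limma, edgeR and DESeq2 calls in this section. A change in such a count is therefore not a result about the gained class. For the single regions named, 152 of 216 alternatives kept direction and side of the threshold, 51 lost the call, 13 gained it and 0 turned direction. Peak lists without replicates and 2 libraries a group limit what can be called.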
